A study of Schizophyllum commune with 14 samples.

Results

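The fully expanded fruiting body of Schizophyllum commune, the split gill mushroom, was set against the vegetative mycelium, the feeding hyphae of the same dikaryon. The libraries were chosen by their labels, 3 of fruiting body and 3 of vegetative mycelium out of 14 in the series. The fruiting bodies were mature, past the stages of primordium and young fruiting body, and carried no further treatment. The mycelium was untreated as well. Both groups came from a dikaryon of the monokaryons H4-8a and H4-8b on MM medium, started from a 5 mm agar plug and kept for 5 days in darkness at 30 °C, then for 10 days at 25 °C with 12 hours of light a day, plates inverted. The labels give that protocol for all stages together, and the day on which each group was harvested is not given in the sources used here. Only this pairing of monokaryons was sampled. Poly(A) RNA was sequenced without strand information, so a gene and any antisense transcript over it share their counts.

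A dikaryon carries a nucleus of each mate in every cell. In the light its mycelium forms aggregates, then primordia, and finally fruiting bodies with split, gill-like folds on which spores are made. Hydrophobins are small secreted proteins that coat hyphae and tissues with a water-repellent film, and S. commune uses different ones on aerial hyphae and in fruiting bodies. A set of transcription factors, a blue light receptor and the pheromones and receptors of mating type locus B are known regulators of this development.

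Unique gene reads (reads placed at a single site) numbered 24052213, 15717469 and 22977409 in fruiting body replicates 1 to 3, and 17638722, 20148678 and 19355777 in those of vegetative mycelium. The 50 most abundant genes took 18.5% to 23.1% of the reads in fruiting body libraries and 13.3% to 14.2% in mycelium libraries. The spread between replicates was larger in fruiting body, with a median coefficient of variation of CPM (unique reads scaled to library totals with TMM factors) over all tested genes of 0.24, against 0.0882 in vegetative mycelium. Fruiting body replicate 1 stood apart. With 1 added to each CPM, 193 of 14302 tested genes (1.35%) were there at least 4-fold above or below both other fruiting body libraries. For replicates 2 and 3 the counts were 4 and 2 genes. In mycelium the same count was 5 for replicate 1 and 0 for the others. The added 1 damps differences at low CPM, so genes of low level are undercounted in both groups. All fruiting libraries, primordia included, were read on 1 flow cell and all mycelium libraries on another. Flow cell and stage thus cannot be told apart in any comparison with the mycelium that follows. Only the fruiting stages can be set beside each other within a flow cell. In such bulk tissue fewer cells of a type and less RNA per cell cannot be told apart either.

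The fruiting body differed from the mycelium in 6051 of 14302 tested genes (42.3%; edgeR quasi-likelihood test, Benjamini-Hochberg adjusted p below 0.05, called here). Of these 3489 rose in fruiting body, 24.4% of all genes tested, and 2562 fell, 17.9%. At 4-fold or more 2121 genes were called (14.8%), 1449 rises (10.1%) and 672 falls (4.7%). The excess of rises grew with the size of the change. Below 2-fold, 663 called genes were higher and 805 lower, and from 2-fold to under 4-fold 1377 were higher and 1085 lower. At 16-fold or more there were 500 against 156, and at 64-fold or more 199 against 40. Without a scaling factor for library composition, 49.5% of the called genes were higher instead of 57.7%, and the median log2 change of all genes was -0.09 instead of 0.07. Leaving out fruiting body replicate 1 and mycelium replicate 1 together gave 4592 called genes, with 1285 rises and 692 falls at 4-fold or more.

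**Figure D1:**
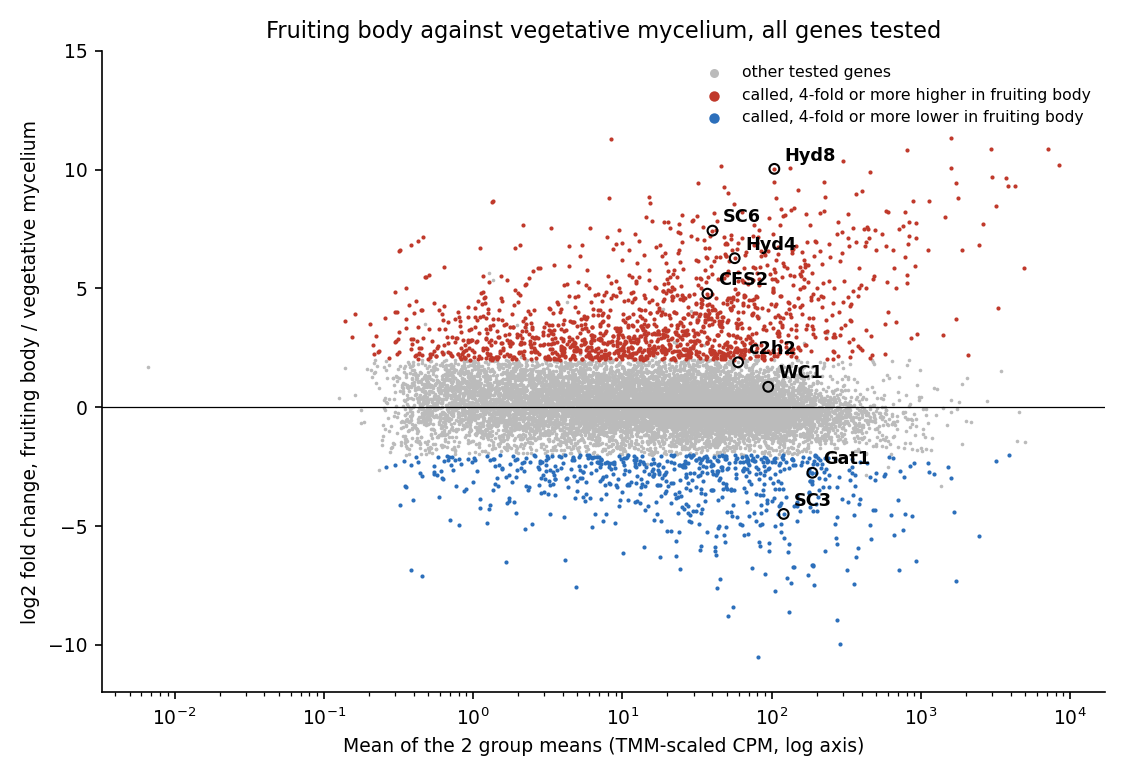
Each point is a tested gene, by the mean of both group means in TMM-scaled CPM (log axis) and its log2 fold change, fruiting body over vegetative mycelium. The 1449 genes called at 4-fold or more higher are red, the 672 lower are blue, and circles mark 8 of the called genes with a symbol, Hyd8 topmost and SC3 lowest.

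The libraries of the groups did not overlap for 1423 of the 1449 large rises and for all 672 large falls, beside 62.5% of all tested genes (33.4% with fruiting body higher, 29.1% lower). The call was made on the same libraries and favours such separation, so these counts are a description. The 1449 genes took 36.8%, 30.8% and 29.1% of the reads in fruiting body replicates 1 to 3, and 1.76%, 1.46% and 1.5% in the mycelium replicates. The means were 32.2 ± 4.01% in fruiting body and 1.57 ± 0.161% in mycelium (SD, n = 3 each). The 672 genes that were lower took 1.61 ± 0.130% of the reads in fruiting body and 15.6 ± 0.116% in mycelium (SD, n = 3 each). Counting error on these shares is small, since the widest 95% Wilson interval of any library spanned 0.0457 percentage points. The 1449 rises took a larger share of the fruiting body reads than the 672 falls took of the mycelium reads, but they were also more genes. Both sets were chosen by these same reads, so the shares are a description. The share of the rises was highest in fruiting body replicate 1.

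Transcripts with the largest rises were short. The 199 genes at least 64-fold higher had a median length of 919 bases, and 54.8% of them were under 1000 bases. Over all tested genes the median was 1317 bases, and 34.0% were under 1000 bases. At 16-fold or more the median was 1048 bases for the 500 rises and 1264 bases for the 156 falls, and at 4-fold or more it was 1236 bases for the 1449 rises and 1247.5 bases for the 672 falls, so that at 4-fold rises and falls were of about the same length.

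Hydrophobins spanned the widest range of log2 changes among the 4 lists of genes with a symbol (hydrophobins, regulators, mating type B genes and others). Of 7 with a symbol 3 rose, Hyd8, SC6 and Hyd4, and 1 fell, SC3, beside 24.4% and 17.9% of all tested genes. Hyd3 and Hyd5 did not pass the test, and Hyd9 had no reads in any of the 6 libraries. The median log2 change of the 6 hydrophobins with reads was 5.96, against 0.07 for all genes tested, with a range of -4.49 to 10.03. SC1 and SC4, other hydrophobins of fruiting tissue, were not analysed here.

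Hyd8 stood at 266, 174 and 184 CPM in the fruiting body replicates, against 0.337, 0.0409 and 0.215 CPM in the mycelium replicates. All fruiting body libraries were far above all mycelium libraries. The log2 change was 10.03 ± 1.38 (standard error, SE; edgeR adjusted p = 0.000107). Hyd8 was also above the mycelium at the earlier fruiting stages, with means of 348 ± 316 CPM in stage 1 primordium (n = 3), 37.2 ± 26.9 CPM in stage 2 primordium (n = 2) and 45.3 ± 59.0 CPM in young fruiting body (n = 3), where the replicates spread more widely than in fruiting body (208 ± 50.7 CPM, n = 3).

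Hyd4 was at 71.4, 56.6 and 207 CPM in fruiting body and at 1.59, 1.10 and 1.63 CPM in mycelium. Fruiting body replicate 3 was the highest, but none of its replicates came near the mycelium. The log2 change was 6.27 ± 1.16 SE (edgeR adjusted p = 0.00099), and 5.47 without fruiting body replicate 3.

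SC6, a hydrophobin known from fruiting dikaryons, measured 3.12, 88.5 and 148 CPM in fruiting body and 0.482, 0.164 and 0.730 CPM in mycelium. Replicate 1 of fruiting body, the library that stood apart, was far below the other replicates and yet above every mycelium library. The log2 change was 7.43 ± 1.53 SE (edgeR adjusted p = 0.00205). It was 6.63 without fruiting body replicate 3, and 8.04 without fruiting body replicate 1 and mycelium replicate 1 together. SC6 was matched to its model through an older locus tag, which makes its identity less certain than that of the others.

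SC3, the hydrophobin that coats aerial hyphae of the mycelium, went the other way. Its level was 3.32, 16.4 and 11.1 CPM in fruiting body, against 328, 170 and 192 CPM in mycelium, so that the lowest mycelium library was above the highest fruiting body library. The log2 change was -4.49 ± 1.26 SE (edgeR adjusted p = 0.0128). Without fruiting body replicate 1 and mycelium replicate 1 together the change was -3.72 and no longer passed (adjusted p = 0.0844). Over the stages SC3 was not at its highest in mycelium, where the mean was 230 ± 85.7 CPM. The means were 1570 ± 1144 CPM in stage 1 primordium and 84.4 ± 71.1 CPM in stage 2 primordium. They were 645 ± 593 CPM in young fruiting body and 10.3 ± 6.58 CPM in fruiting body (SD, n = 3 each, but n = 2 in stage 2 primordium). The young fruiting body replicates were at 742, 9.69 and 1185 CPM, so that replicate 2 lay within the range of fruiting body.

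Hyd3 had 175 reads in fruiting body and 3 in mycelium, a ratio of 59.4 after scaling to library totals (95% exact counting interval 20.0 to 291), which covers counting error only. Its levels were 0.280, 1.75 and 5.49 CPM in fruiting body and 0.0963, 0 and 0.0430 CPM in mycelium, and it did not pass the test (edgeR adjusted p = 0.1). Without 1 library the ratio was 20.1 (without fruiting body replicate 3), 90.8 (without fruiting body replicate 1), 124 (without mycelium replicate 1) and 38.2 (without mycelium replicate 2). Hyd5 was at 32.8, 4.32 and 4.74 CPM in fruiting body and at 5.11, 4.38 and 4.64 CPM in mycelium. Only fruiting body replicate 1 was above the mycelium, and the 95% interval of the log2 change was -0.28 to 3.43 (edgeR adjusted p = 0.159). Without that library the change was -0.05.

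**Figure D2:**
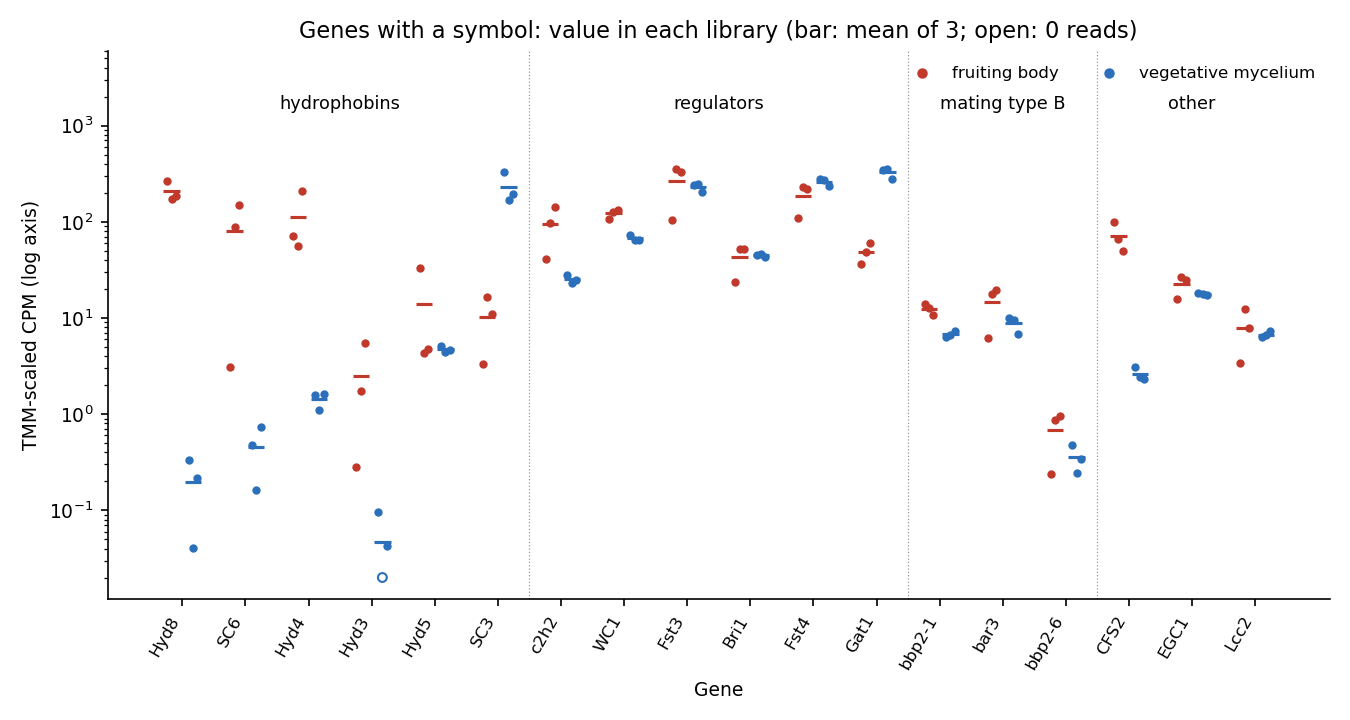
Each point is a library, fruiting body (red) left of vegetative mycelium (blue), in TMM-scaled CPM on a log axis, with the mean of 3 as a bar and an open point for 0 reads. Hyd8, SC6, Hyd4 and CFS2 lie well above the mycelium, SC3 and Gat1 below it, and the other regulators and mating type genes differ less.

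Of 6 regulators of fruiting with a symbol 2 rose, c2h2 and WC1, and 1 fell, Gat1, while Fst3, Fst4 and Bri1 did not pass the test. Their median log2 change was 0.05, beside 0.07 for all genes tested. The share called among them can be read against the 42.3% of all genes called.

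Gat1, a GATA-type zinc finger protein whose loss is known to give more and smaller fruiting bodies, was at 36.1, 48.8 and 59.9 CPM in fruiting body and at 344, 355 and 280 CPM in mycelium. Every fruiting body library was far below every mycelium library. The log2 change was -2.76 ± 0.25 SE (edgeR adjusted p = 2.02e-06). Its stage means were 326 CPM in vegetative mycelium, 102 CPM in stage 1 primordium, 56.4 CPM in stage 2 primordium, 56.1 CPM in young fruiting body and 48.2 CPM in fruiting body.

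The zinc finger gene c2h2, needed for development past the aggregate stage, was at 41.0, 97.7 and 143 CPM in fruiting body and at 27.9, 23.1 and 24.8 CPM in mycelium. The groups did not overlap, and the change was 1.89 ± 0.52 SE on the log2 scale (edgeR adjusted p = 0.0104). Fruiting body replicate 1 was the lowest of its group. The highest stage mean of c2h2 was in stage 1 primordium, at 256 CPM.

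WC1, which encodes the blue light receptor, was at 107, 127 and 133 CPM in fruiting body and at 73.5, 64.3 and 64.1 CPM in mycelium. The groups did not overlap, with a small log2 change of 0.86 ± 0.25 SE (edgeR adjusted p = 0.0123).

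Fst3 and Fst4 are fungal-specific transcription factors, of which Fst4 is needed for the switch to fruiting and Fst3 limits the number of fruiting bodies. Fst3 was at 105, 355 and 328 CPM in fruiting body and at 242, 248 and 205 CPM in mycelium, with replicate 1 of fruiting body below and its other replicates above the mycelium. The 95% interval of its log2 change was -0.66 to 1.02 (edgeR adjusted p = 0.739). Fst4 was at 109, 228 and 217 CPM in fruiting body, against 275, 271 and 234 CPM in mycelium. All fruiting body libraries lay below all mycelium libraries, yet the change did not pass the test (95% interval -1.10 to 0.11 on the log2 scale, edgeR adjusted p = 0.175). Bri1, which encodes a protein with an ARID/BRIGHT domain, was at 23.8, 51.6 and 52.5 CPM in fruiting body and at 45.3, 46.2 and 43.4 CPM in mycelium (95% interval -0.61 to 0.46, edgeR adjusted p = 0.833). In Bri1, as in Fst3, replicate 1 of fruiting body was the only one of its group below the mycelium.

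The mating type B genes had low levels in both groups. Of 3 tested, 1 rose, beside 24.4% of all tested genes: the pheromone precursor gene bbp2-1 was at 13.9, 12.7 and 10.8 CPM in fruiting body and at 6.41, 6.67 and 7.39 CPM in mycelium. Its libraries did not overlap, and the log2 change was 0.87 ± 0.23 SE (edgeR adjusted p = 0.00782). The call was lost without a scaling factor (0.71, adjusted p = 0.0567) and without fruiting body replicate 1 and mycelium replicate 1 together (0.74, adjusted p = 0.0694).

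The pheromone receptor gene bar3 was at 6.24, 17.6 and 19.6 CPM in fruiting body and at 10.1, 9.57 and 6.75 CPM in mycelium, and did not pass (log2 change 0.72, edgeR adjusted p = 0.102). Replicate 1 of fruiting body was below every mycelium library and the other replicates above them. Without that library bar3 passed (1.08, adjusted p = 0.00183), and so did the precursor gene bbp2-6 (1.36, adjusted p = 0.0366), which with all libraries was at 0.240, 0.876 and 0.955 CPM in fruiting body and at 0.482, 0.245 and 0.344 CPM in mycelium (adjusted p = 0.189). The symbol bbp2, a further precursor gene, is carried by 2 loci of the reference, of which the matched one, SCHCODRAFT_02514483, had 2 reads in fruiting body and 1 in mycelium and was not tested.

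Among the other genes with a symbol, CFS2 rose. It was at 98.4, 66.2 and 50.2 CPM in fruiting body and at 3.08, 2.41 and 2.32 CPM in mycelium, with a log2 change of 4.78 ± 0.62 SE (edgeR adjusted p = 5.62e-05). The stage means of CFS2 were 2.60 CPM in vegetative mycelium, 6.49 CPM in stage 1 primordium, 29.1 CPM in stage 2 primordium, 31.2 CPM in young fruiting body and 71.6 CPM in fruiting body, so that fruiting body held the highest level. EGC1 was at 15.6, 26.6 and 25.0 CPM in fruiting body and at 18.3, 17.9 and 17.5 CPM in mycelium. The laccase gene Lcc2 was at 3.44, 12.3 and 7.88 CPM in fruiting body and at 6.26, 6.59 and 7.26 CPM in mycelium. In both of these genes the groups overlapped, and neither passed the test (95% intervals of the log2 change -0.21 to 0.86 and -0.89 to 1.34).

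The largest changes fell on genes without a symbol. The 10 largest rises among called genes with at least 10 CPM in fruiting body and no overlap between the groups had log2 changes of 10.06 to 11.34. SCHCODRAFT_02547507 led by size. It was at 4846, 2487 and 2158 CPM in fruiting body and at 2.46, 0.654 and 0.558 CPM in mycelium, with a log2 change of 11.34 ± 1.13 SE (edgeR adjusted p = 4.58e-06).

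SCHCODRAFT_02372730 had the highest level per length in fruiting body, 27787 ± 14704 RPKM, against 14.9 ± 24.8 RPKM in mycelium (CPM per kilobase of transcript; SD, n = 3 each). Its CPM were 5494, 18208 and 18646 in the fruiting body replicates and 22.2, 0.368 and 0.258 in the mycelium replicates. Mycelium replicate 1 was thus far above the other mycelium libraries, and the log2 change of 10.86 ± 1.91 SE (edgeR adjusted p = 0.000628) became 15.43 without it. Next by RPKM in fruiting body were SCHCODRAFT_02628901, at 14868 ± 10039 RPKM in fruiting body and 12.5 ± 12.0 RPKM in mycelium, and SCHCODRAFT_02605614, at 14254 ± 9130 RPKM in fruiting body and 7.66 ± 8.83 RPKM in mycelium. Their log2 changes were 10.21 ± 1.22 SE and 10.87 ± 1.33 SE (edgeR adjusted p = 1.95e-05 and 3.02e-05).

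Mycelium replicate 1 was the highest of the mycelium libraries for most of these genes. Without it the log2 changes were 12.33 for SCHCODRAFT_02547507, 12.43 for SCHCODRAFT_02605614, 13.16 for SCHCODRAFT_02612041, 11.36 for SCHCODRAFT_02628901, 11.89 for SCHCODRAFT_02664662, 12.78 for model_2610781, 11.06 for model_2629707 and 11.68 for model_2704222. The change of SCHCODRAFT_02605614 was 10.22 without fruiting body replicate 1, and that of SCHCODRAFT_02628901 was 9.56 without fruiting body replicate 2. All of these kept their call in each alternative tried. Models named by a number have no locus tag in the gene reference.

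A rise from no reads at all was rare. SCHCODRAFT_02699043 was the only gene with 0 reads in all mycelium libraries and a mean of 10 CPM or more in fruiting body. It was at 42.4, 2.86 and 4.98 CPM in the fruiting body replicates (1233 reads), at least 419-fold higher than in mycelium, counting 3 reads over that group as its floor. Replicate 1 of fruiting body held most of the reads, and the bound was 94.0 without that library, 539 without fruiting body replicate 2 and 600.4 without fruiting body replicate 3. Without 1 mycelium library it was 269 to 292. At a mean of 1 CPM or more there were 3 such genes, all called, and no gene showed the reverse. Genes with a mean under 1 CPM in mycelium and 100 CPM or more in fruiting body numbered 26, and those with a mean under 1 CPM in fruiting body and 100 CPM or more in mycelium numbered 6.

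**Figure D3:**
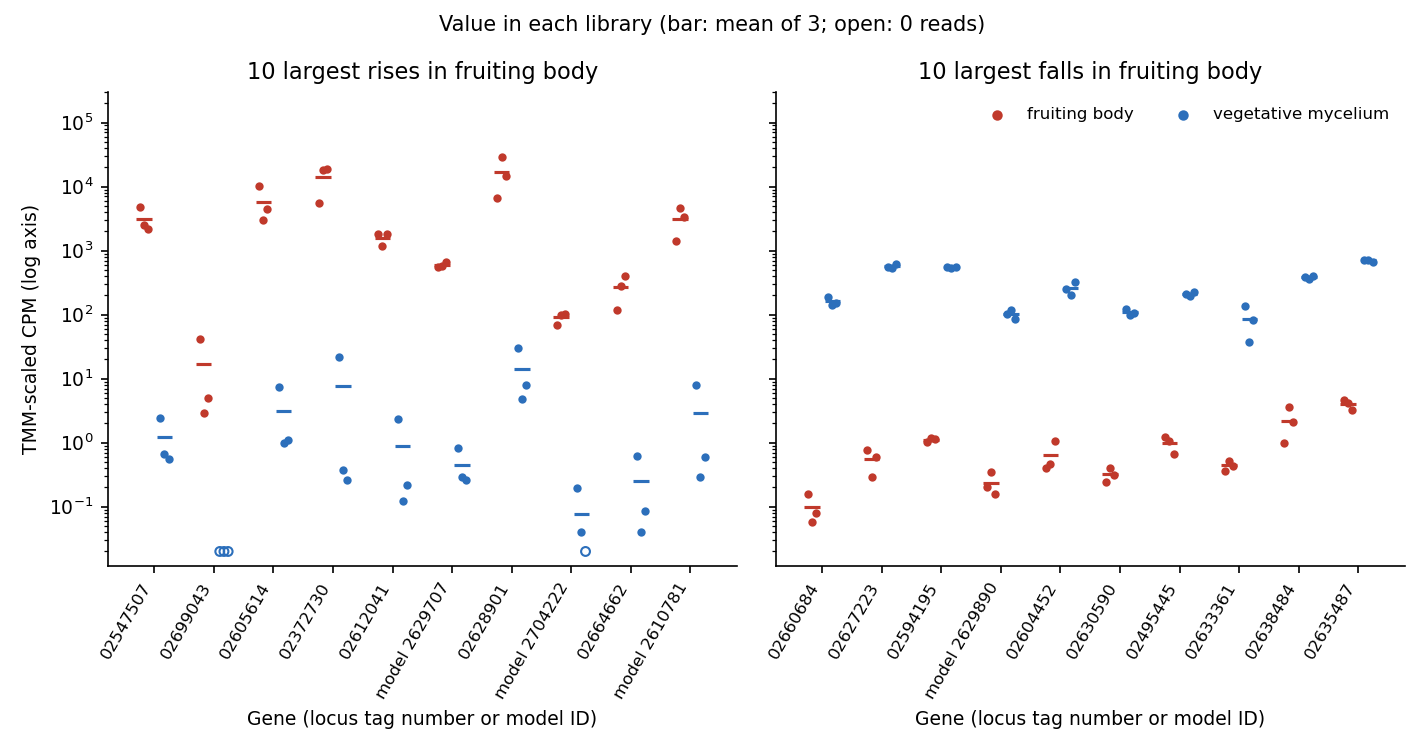
Left, the 10 largest rises in fruiting body, and right, the 10 largest falls, with each library as a point (fruiting body red, left of vegetative mycelium blue) in TMM-scaled CPM on a log axis, the mean of 3 as a bar and open points for 0 reads. Among the rises the mycelium points are widely spread, replicate 1 being the highest in most. Among the falls the mycelium points lie close together, except for SCHCODRAFT_02633361.

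The 10 largest falls had log2 changes of -10.52 to -7.45, and fruiting body means of at most 4.02 CPM. SCHCODRAFT_02660684 was at 0.160, 0.0584 and 0.0796 CPM in fruiting body and at 189, 142 and 155 CPM in mycelium (log2 change -10.52 ± 0.77 SE, edgeR adjusted p = 4.85e-07). SCHCODRAFT_02627223 was at 0.760, 0.292 and 0.597 CPM in fruiting body and at 562, 529 and 618 CPM in mycelium (-9.96 ± 1.19 SE, adjusted p = 3.65e-05). SCHCODRAFT_02594195 was at 1.04, 1.17 and 1.15 CPM in fruiting body and at 553, 533 and 564 CPM in mycelium (-8.93 ± 0.51 SE, adjusted p = 7.03e-08). SCHCODRAFT_02594195 averaged 1.12 CPM in fruiting body and 1.12 CPM in stage 1 primordium, while SCHCODRAFT_02627223 averaged 0.550 CPM in fruiting body and 11.3 CPM in stage 1 primordium. The change of SCHCODRAFT_02604452, -8.61, was -9.21 without fruiting body replicate 3, and without fruiting body replicate 1 and mycelium replicate 1 together that of SCHCODRAFT_02633361, -7.60, was -6.95. The calls of the 10 were kept in each alternative tried.

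None of the 3 transcripts with the highest RPKM in mycelium passed the test. Model_2518266 was at 7789 ± 2419 RPKM in fruiting body and 6508 ± 627 RPKM in mycelium (SD, n = 3 each), with a 95% interval of the log2 change of -0.48 to 1.00. Model_2672790 was at 5104 ± 6284 RPKM in fruiting body and 4147 ± 1576 RPKM in mycelium (-1.55 to 2.15), and SCHCODRAFT_02744056 at 3477 ± 1897 RPKM in fruiting body and 3972 ± 97.4 RPKM in mycelium (-0.98 to 0.59). The groups overlapped in all 3 genes.

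The other stages show where these levels lay in the course of fruiting. Of the 1449 genes at least 4-fold higher in fruiting body than in mycelium, 803 (55.4%) had their highest stage mean in fruiting body, beside 22.2% of all tested genes. A further 298 were highest in stage 2 primordium, 292 in stage 1 primordium and 56 in young fruiting body. Here and below, the means of stage 2 primordium rest on only 2 libraries, whose spread was the largest of any stage. The mycelium was the lowest stage for 1293 of the 1449, and stage 1 primordium for 140, beside 28.7% and 24.9% of all tested genes. Of the 672 falls, 646 (96.1%) were highest in mycelium, beside 25.3% of all tested genes. The lowest stage was fruiting body for 262 of these falls, stage 2 primordium for 227, stage 1 primordium for 149 and young fruiting body for 34. Over all tested genes these shares were 15.5%, 26.9%, 24.9% and 4.02% in the same order. The comparison itself keeps the mycelium from being the highest stage of a gene that rose, and fruiting body from being the highest of a gene that fell. It also favours fruiting body as the highest stage of a rise and mycelium as that of a fall, so these counts are a description.

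In fruiting body 50 of the large rises had a mean of 1000 CPM or more. The groups did not overlap in any of them, which the call itself favours. Of these 26 were highest in fruiting body, with a median over the genes of 9.89 CPM in vegetative mycelium, 91.3 CPM in stage 1 primordium, 846 CPM in stage 2 primordium, 612 CPM in young fruiting body and 1719 CPM in fruiting body. In the other 24, highest at an earlier fruiting stage, the medians were 31.5, 2863, 8746, 3487 and 2170 CPM in the same order. Both the split and the minimum of 1000 CPM use the stage means, so the medians describe the sets and no more. In the 24 large falls with 1000 CPM or more in mycelium the medians were 1588, 312, 328, 285 and 165 CPM in the same order, and mycelium was the highest stage in all 24.

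**Figure D4:**
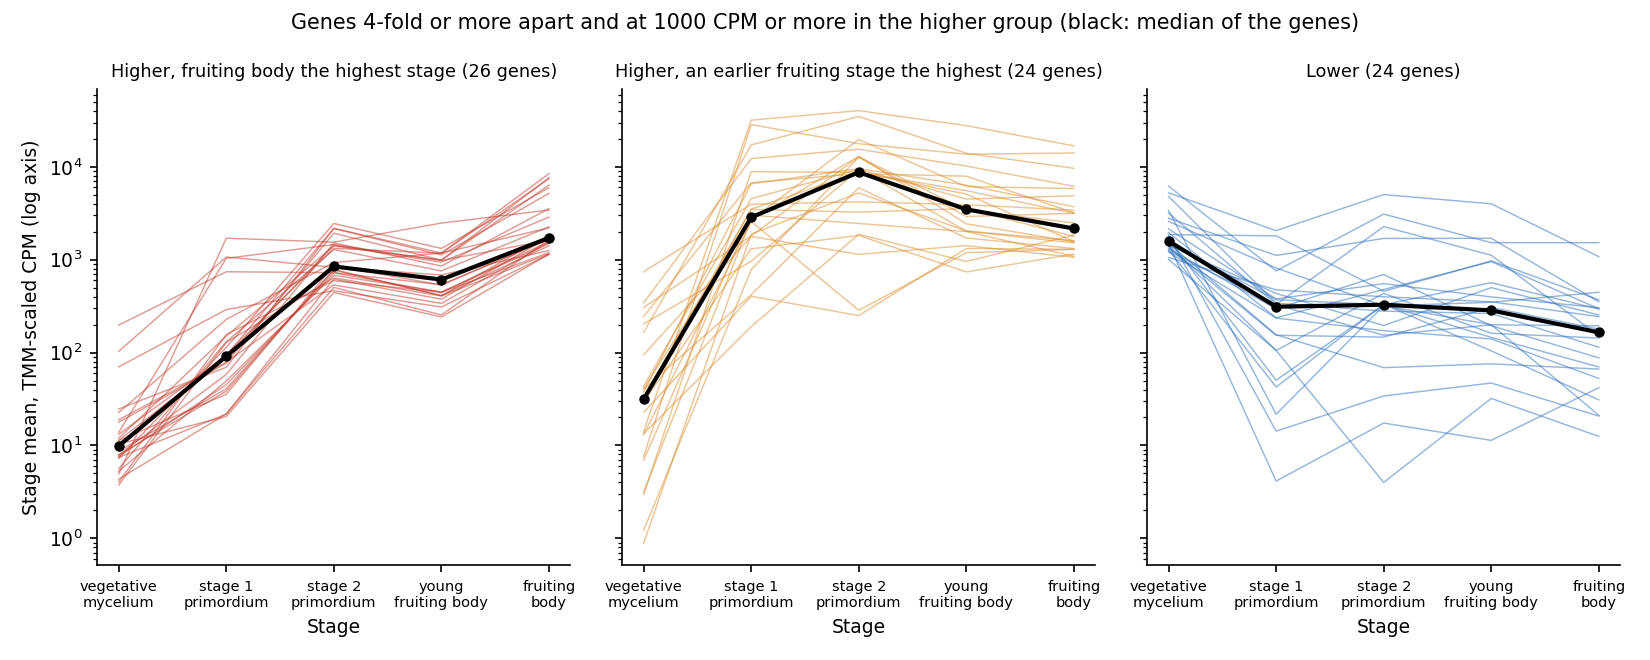
Each thin line is a gene with a mean of 1000 CPM or more in the higher group, by stage from vegetative mycelium to fruiting body, with stage means in TMM-scaled CPM on a log axis and the median of the genes in black. The 26 genes highest in fruiting body have a median of 1719 CPM there, the 24 highest at an earlier fruiting stage a median of 8746 CPM in stage 2 primordium, and the 24 that fell have medians of 1588 CPM in mycelium and 312 CPM in stage 1 primordium.

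Fruiting body replicate 1 was above both other fruiting body libraries in 21 of the 26 genes highest in fruiting body and below both in 4, and above in 9 and below in 14 of the other 24. Over all 14302 tested genes it was above both in 6520 and below both in 5768, and over the 1449 large rises above in 780 and below in 536. A high replicate 1 raises the fruiting body mean by which the sets were split, so nothing is read from the difference between them. As an example, SCHCODRAFT_02699522 was at 17695, 3871 and 3822 CPM in the fruiting body replicates and at 22.8, 9.33 and 7.43 CPM in the mycelium replicates (log2 change 9.33 ± 1.21 SE, edgeR adjusted p = 5.29e-05). It was chosen after its values were seen. In mycelium, replicate 1 was the highest library for 46 of the 50 genes, beside 34.3% of all tested genes, and its level was at a median of 1.97 times the mean of the other mycelium libraries. Relative to the fruiting body mean the median over the 50 genes was 0.882% in mycelium replicate 1, 0.496% in replicate 2 and 0.553% in replicate 3. What part these libraries have in the changes was not tested, beyond the values without them.

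Some of the genes that changed were neighbours in the gene order of the reference. Runs of 4 or more neighbouring genes, all called at 4-fold or more in the same direction, numbered 16 with 69 genes among the 1428 rises that have a place in the order, and 8 with 34 genes among 655 falls. The longest run of rises had 7 genes, SCHCODRAFT_02577740 to SCHCODRAFT_02501669, with log2 changes of 2.00 to 3.59. SCHCODRAFT_02577740 was at 72.6, 182 and 372 CPM in fruiting body and at 17.2, 18.4 and 17.3 CPM in mycelium, and SCHCODRAFT_02501669 at 44.4, 136 and 174 CPM in fruiting body and at 22.2, 24.0 and 20.1 CPM in mycelium. All 7 genes were highest in fruiting body replicate 3, and without it the change of SCHCODRAFT_02577740 was 2.85 instead of 3.57.

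A run of 5 rises went from SCHCODRAFT_02604809 to SCHCODRAFT_02008761, with log2 changes of 2.29 to 7.55. SCHCODRAFT_02604809 was at 25.4, 45.5 and 70.7 CPM in fruiting body and at 8.72, 8.75 and 9.49 CPM in mycelium (log2 change 2.39 ± 0.78 SE, edgeR adjusted p = 0.0271), and lost its call without fruiting body replicate 3 (1.98, adjusted p = 0.0801) or any single mycelium library (adjusted p = 0.0716 to 0.0798), and without fruiting body replicate 1 and mycelium replicate 1 together (2.67, adjusted p = 0.0649). SCHCODRAFT_02008761 was at 27.7, 3.44 and 5.17 CPM in fruiting body and at 0.0482, 0.0818 and 0.0430 CPM in mycelium, and its log2 change of 7.55 was 6.06 without fruiting body replicate 1. The middle genes of this run were even across the fruiting body replicates, as SCHCODRAFT_02604814 at 73.8, 81.4 and 78.1 CPM in fruiting body and 16.04, 16.8 and 15.04 CPM in mycelium.

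The longest run of falls had 6 genes, SCHCODRAFT_01216606 to SCHCODRAFT_01245412, with log2 changes of -6.84 to -2.32. SCHCODRAFT_01216606 was at 3.92, 3.21 and 2.87 CPM in fruiting body and at 42.1, 35.8 and 46.9 CPM in mycelium. SCHCODRAFT_01245412 had 2 reads in fruiting body and 227 in mycelium, a ratio of mycelium over fruiting body of 111 (95% exact interval 30.5 to 926, counting error only), and 69.8 without fruiting body replicate 3. Both reads came from fruiting body replicate 1. Without that library the bound was 46.7-fold lower in fruiting body, counting 3 reads over that group as its floor. The 95% exact interval then began at 37.7-fold. Of the 6 genes 4 had between 7.71% and 27.5% of their reads placed at more than 1 site, so that they may share reads with similar copies, and their values are less certain. Among all genes called at 4-fold or more, 47 of 2121 had 10% or more of such reads, beside 368 of 14302 tested genes. In a run of 4 falls, SCHCODRAFT_02623412 to SCHCODRAFT_02730943, the changes were -3.99 to -2.68, and no read had a second placement.

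**Figure D5:**
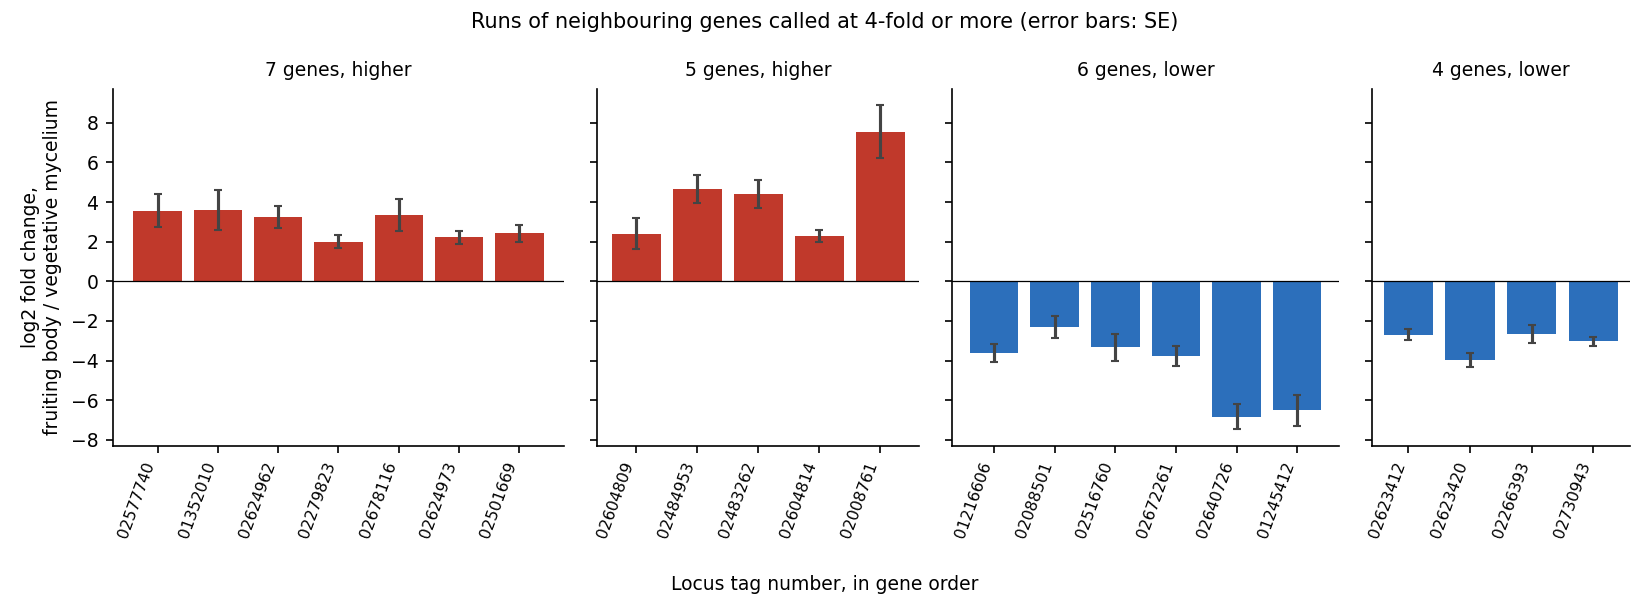
Bars are log2 fold changes, fruiting body over vegetative mycelium, with SE as error bars, for the genes of 4 runs in gene order. The runs of 7 and 5 genes (red) were higher in fruiting body, the last gene of the run of 5 reaching 7.55, and the runs of 6 and 4 genes (blue) were lower.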

How the data were processed

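Poly(A) RNA of 14 libraries was sequenced, and 6 of them, 3 of fruiting body and 3 of vegetative mycelium, are compared here. The authors deposited raw counts of unique and total gene reads per transcript model for each library, per the file headers, and a table of log2 RPKM for the whole series, scaled by the authors. Per the submitters' processing notes, R 3.0.2, edgeR 3.4.2 and limma 3.18.13 were used. Which aligner and genome build were used is not given in the sources used here.

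Unique counts of 16319 models entered edgeR 4.0.16 (R 4.3.3). After filterByExpr by stage, 14302 genes were left. With TMM factors, a quasi-likelihood model (robust) with a mean per stage was fitted to all 14 libraries, which share an estimate of the spread per gene. Tests were two-sided, and a call needed an adjusted p (Benjamini-Hochberg) below 0.05. The SE is the size of the log2 change over the square root of F. Levels are CPM with TMM-adjusted totals, or RPKM where genes are set beside each other. Tested on simulated data with 100 genes changed per fold size, it found 84% of the 4-fold changes and 16% of the 2-fold ones among 14154 genes, with 4 false calls of 104. Far fewer genes changed there than were called in the data, so these shares do not carry over to the data. Replicates are biological per the series' design text, with no record of separate cultures. P-values therefore measure the spread between libraries, pooled over all 14 and not over these 6 alone. Alternatives were other scalings and filters, total reads, DESeq2 1.42.0, limma 3.58.1 (voom), only these 6 libraries, the replicate number as a block, and leaving out libraries. Leaving out fruiting body replicate 1 and mycelium replicate 1 together, and limma on the authors' log2 table, were added after seeing the data.

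Model IDs were matched to locus tags and symbols of the gene reference, assembly Schco3, by their number, with an offset of 287 for IDs from 2000000 up. Of 16319 models 16024 matched, 11 of them by an older locus tag, and 20 had a symbol. That reference gives no chromosomes, products or sequences, so no positions or sequences are printed, and planned lists by protein pattern could not be applied. Gene order was read from the order of its entries, a new scaffold starting where positions fall back, which gave 19 scaffolds. Genes named are those with a symbol, the 10 largest rises and falls among called genes with 10 CPM or more in the higher group and no overlap, the 3 highest RPKM in each group, and the ends of the 2 longest runs in each direction. For falls, 7 runs of 4 genes tied and the first in gene order was taken, and likewise among 2 runs of 5 rises. The members and lists were chosen with earlier results of these data known.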

Additional observations from a re-analysis of the deposited data

How the results depend on the processing

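Over 18 alternatives the called genes numbered 4592 to 6994 and those at 4-fold or more 1977 to 2158, of which at least 1799 were shared with the 2121 and none had the opposite sign. Without a single library the counts were 4724 to 5754 and 2013 to 2151. Of 37 named genes called, 34 kept their call throughout; SC3, bbp2-1 and SCHCODRAFT_02604809 lost it in the alternatives given with them. Without fruiting body replicate 1 and mycelium replicate 1 together, 0 hydrophobins were called lower and 2 mating type B genes higher. Mating type B genes called higher numbered 0 without a scaling factor and 1 to 3 without a single library. The cause of these shifts was not tested.

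Same-numbered libraries of the groups did not clearly deviate together (r = -0.051, 0.104 and -0.105), and not every library correlated best with its own number. With 3 libraries a group these correlations cannot exclude a pairing by number. With the replicate block there were 5733 called genes over all 14 libraries and 6169 over only these 6, with 2087 and 2037 at 4-fold or more.

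The sign changed only in genes that did not pass. Bri1 reversed to 0.213 without fruiting body replicate 1 and to 0.218 without mycelium replicate 1 as well; without single libraries it ranged from -0.253 to 0.213. Hyd5 ranged from -0.052 (without fruiting body replicate 1) to 2.00 (without replicate 2), and Lcc2 from -0.243 (without fruiting body replicate 2) to 0.589 (without replicate 1). Fst3 was at -0.097 without fruiting body replicate 2, -0.0089 without replicate 3, 0.562 without replicate 1, -0.040 with the block over 6 libraries and -0.0093 in the authors' log2 table. SCHCODRAFT_02744056 was at 0.033 without fruiting body replicate 2, 0.0068 without replicate 3 and -0.736 without replicate 1. For model_2672790 the values were -1.47 without fruiting body replicate 3 and 0.805 without replicate 1, -0.287 with the block over all libraries and -0.545 over 6, -0.502 with voom, -0.501 with voom and a spread per stage, and -0.504 in the authors' log2 table. In simulated data with 100 genes changed per fold size, 2-fold changes were mostly not recovered. With 6051 genes called in the data the adjusted p sets another cutoff, so that share does not carry over. Genes not called may still differ.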
